A study of Homo sapiens with 16 samples.

Results

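The core hypoxia response was followed as 10 genes, of the 26258 genes in the deposited table, through every library of a study of Sorafenib resistance in hepatocellular carcinoma (HCC) cells. They are CA9, CA12, NDRG1, ADM, ANKRD37, BNIP3, PFKFB3, PFKFB4, KDM3A and P4HA1, taken by name as genes that low oxygen induces, and all 10 were measured. RNA of 16 libraries was sequenced from 2 human HCC lines, Huh7 and Hep3B. Each line was represented by parental cells, cells labeled DMSO, IR cells and CR cells, with 2 libraries of each. The IR cells were made resistant by stepwise higher Sorafenib concentrations and the CR cells by a constantly high one, and both carry the label of 7 µM Sorafenib. The parental and DMSO libraries are labeled as untreated, and DMSO is the usual solvent of Sorafenib, but the sources used here do not say how the DMSO cells were kept. Every comparison of resistant with parental cells therefore includes both the presence of the drug and the resistance to it. No source used here says whether a resistant line was a clone or a pool. The study's methods call the replicates biological, but the labels do not say whether the 2 libraries of a group came from separate cultures. The p-values measure the spread between these libraries, which may be technical.

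When oxygen is plentiful, prolyl hydroxylases mark the HIFα subunits for binding by VHL and for degradation by the proteasome. When oxygen is short the subunits persist, pair with ARNT and bind a short motif with the core ACGTG or GCGTG near their target genes. The targets lower the need for oxygen and deal with its lack. They raise glycolysis, export acid, trim mitochondria, modify collagen and widen vessels. In HCC the HIF pathway is best known for angiogenesis and for a shift to glycolysis.

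The promoters of 4 of the genes are printed because their RNA varied most in the comparisons below or because they hold the most matches to the HIF core motif. CA9 and PFKFB4 were, with NDRG1, the genes that differed most between DMSO libraries, KDM3A rose in both resistant Huh7 lines and BNIP3 had the most matches. Each sequence is the 250 bases before the gene's start in RefSeq (GRCh38.p14), on the gene's strand, with matches to ACGTG or GCGTG on either strand in capitals. They are chr9:35673678-35673927 (plus strand) for CA9, chr3:48556804-48557053 (minus strand) for PFKFB4, chr2:86441121-86441370 (plus strand) for KDM3A and chr10:131981924-131982173 (minus strand) for BNIP3.
CA9: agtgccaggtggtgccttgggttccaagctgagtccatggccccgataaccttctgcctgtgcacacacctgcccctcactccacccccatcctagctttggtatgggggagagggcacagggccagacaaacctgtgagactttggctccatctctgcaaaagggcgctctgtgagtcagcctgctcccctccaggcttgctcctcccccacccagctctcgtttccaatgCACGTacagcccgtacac
PFKFB4: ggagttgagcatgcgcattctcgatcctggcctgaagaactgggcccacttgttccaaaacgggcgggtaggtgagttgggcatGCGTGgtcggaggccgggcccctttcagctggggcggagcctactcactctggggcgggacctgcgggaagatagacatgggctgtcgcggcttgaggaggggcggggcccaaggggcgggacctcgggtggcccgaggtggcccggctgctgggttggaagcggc
KDM3A: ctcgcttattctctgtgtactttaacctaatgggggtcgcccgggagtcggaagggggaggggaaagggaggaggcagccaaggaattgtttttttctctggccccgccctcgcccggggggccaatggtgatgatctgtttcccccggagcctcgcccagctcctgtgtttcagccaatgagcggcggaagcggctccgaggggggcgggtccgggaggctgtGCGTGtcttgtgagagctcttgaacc
BNIP3: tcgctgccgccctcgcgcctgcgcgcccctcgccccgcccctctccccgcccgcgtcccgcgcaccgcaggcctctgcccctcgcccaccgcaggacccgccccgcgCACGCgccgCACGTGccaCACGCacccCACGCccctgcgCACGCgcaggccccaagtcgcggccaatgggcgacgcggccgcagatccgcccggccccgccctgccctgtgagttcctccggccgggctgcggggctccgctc
The search was run in windows from 250 bases before to 50 bases after the start, and 9 of the 10 genes, all but NDRG1, had an entry in the table. All 9 held at least 1 match, as did 48.4% of the 35116 promoters in the table. ACGTG alone, on either strand, was found in 5 of the 9 and in 21.4% of all promoters. BNIP3 had 6 matches, where the palindrome CACGTG is read on both strands and counts as 2. A match shows that these letters are present and nothing about binding in these cells.

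Reads recovered from the deposited values numbered 46613302 to 76860251 per library. The difference between replicates had an SD over 14597 genes of 0.57 (log2) in the DMSO and IR groups of Huh7 and of 0.24 to 0.31 elsewhere. The second DMSO libraries stood apart from the first along GC content, with Spearman correlations across genes of 0.51 in Huh7 and 0.38 in Hep3B, against -0.52 in Huh7 parental cells. Results that rest on the DMSO libraries are therefore given with and without them. The hepatocyte markers on a list of 10, such as ALB and AFP, were detected in every library. They summed to 11150 and 16750 CPM in the Huh7 parental libraries and to 115 and 463 in Huh7-IR, and all 9 that were called there were lower. Of 10 markers of other cell types, the endothelial CDH5 was at 0 in 12 libraries and highest, at 1.49 CPM, in the second Huh7 DMSO library. The leukocyte marker PTPRC was at 1.32 CPM at most. Other markers were higher, with EPCAM at 21.6 to 672 CPM, COL3A1 at up to 98.9 CPM and KRT7 at up to 21 CPM. COL1A1 had 0.162 and 0.0422 CPM in Hep3B parental and 11.5 to 66.2 CPM in the resistant Hep3B libraries. In Huh7 it had 1.02 and 0.563 CPM in parental and 31.1 to 60.7 CPM in the resistant libraries. CD68 lay between 2.58 and 71.9 CPM. The part of these lists in the results below was not tested.

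The values of each library show a pattern that group means hide. CA9, NDRG1 and PFKFB4 were highest in the second DMSO library of each line. CA9 (gene ID 768, chromosome 9, 35673925 to 35681156 in GRCh37) encodes a membrane carbonic anhydrase that acidifies the space around cells. In Huh7 it had 0.0582 and 0.0402 CPM (reads per 1000000 reads of the library) in the parental libraries, 0.152 and 9.15 CPM in DMSO, 0.0332 and 0.0858 CPM in IR and 0.0927 and 0.458 CPM in CR, in the order of replicates 1 and 2. In Hep3B it had 3.53 and 3.67 CPM in parental, 3.88 and 39.5 CPM in DMSO, 8.04 and 9.95 CPM in IR and 1.69 and 3.60 CPM in CR. The first DMSO library of Hep3B lay beside the parental libraries, and the second was above all 15 others. In Huh7 the first DMSO library rested on 11 reads and the second on 637, while the parental and IR libraries had 2 to 4 reads each, near the 3 reads that a count of 0 allows.

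NDRG1 (gene ID 10397, chromosome 8, 134249418 to 134314265), a stress-responsive protein long used as a marker of hypoxia in tumors, showed the same contrast on a higher level. It had 101 and 59.0 CPM in Huh7 parental, 66.3 and 415 CPM in DMSO, 47.5 and 21.5 CPM in IR and 22.2 and 18.4 CPM in CR. In Hep3B it had 13.7 and 10.9 CPM in parental, 15.4 and 134 CPM in DMSO, 29.0 and 64.2 CPM in IR and 44.8 and 93.1 CPM in CR. The second DMSO library was the highest of its line in both lines, in Hep3B followed by the second libraries of CR and IR. PFKFB4 (gene ID 5210, chromosome 3, 48555117 to 48599448) encodes a bifunctional enzyme that sets fructose 2,6-bisphosphate and with it the pace of glycolysis. It had 2.08 and 3.35 CPM in Huh7 parental, 4.76 and 59.6 CPM in DMSO, 13.9 and 10.4 CPM in IR and 5.46 and 5.34 CPM in CR. Hep3B had 2.42 and 2.04 CPM in parental, 4.45 and 25.5 CPM in DMSO, 2.44 and 2.37 CPM in IR and 3.15 and 3.03 CPM in CR. In Hep3B the 7 libraries other than the second DMSO library held PFKFB4 between 2.04 and 4.45 CPM.

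**Figure D1:**
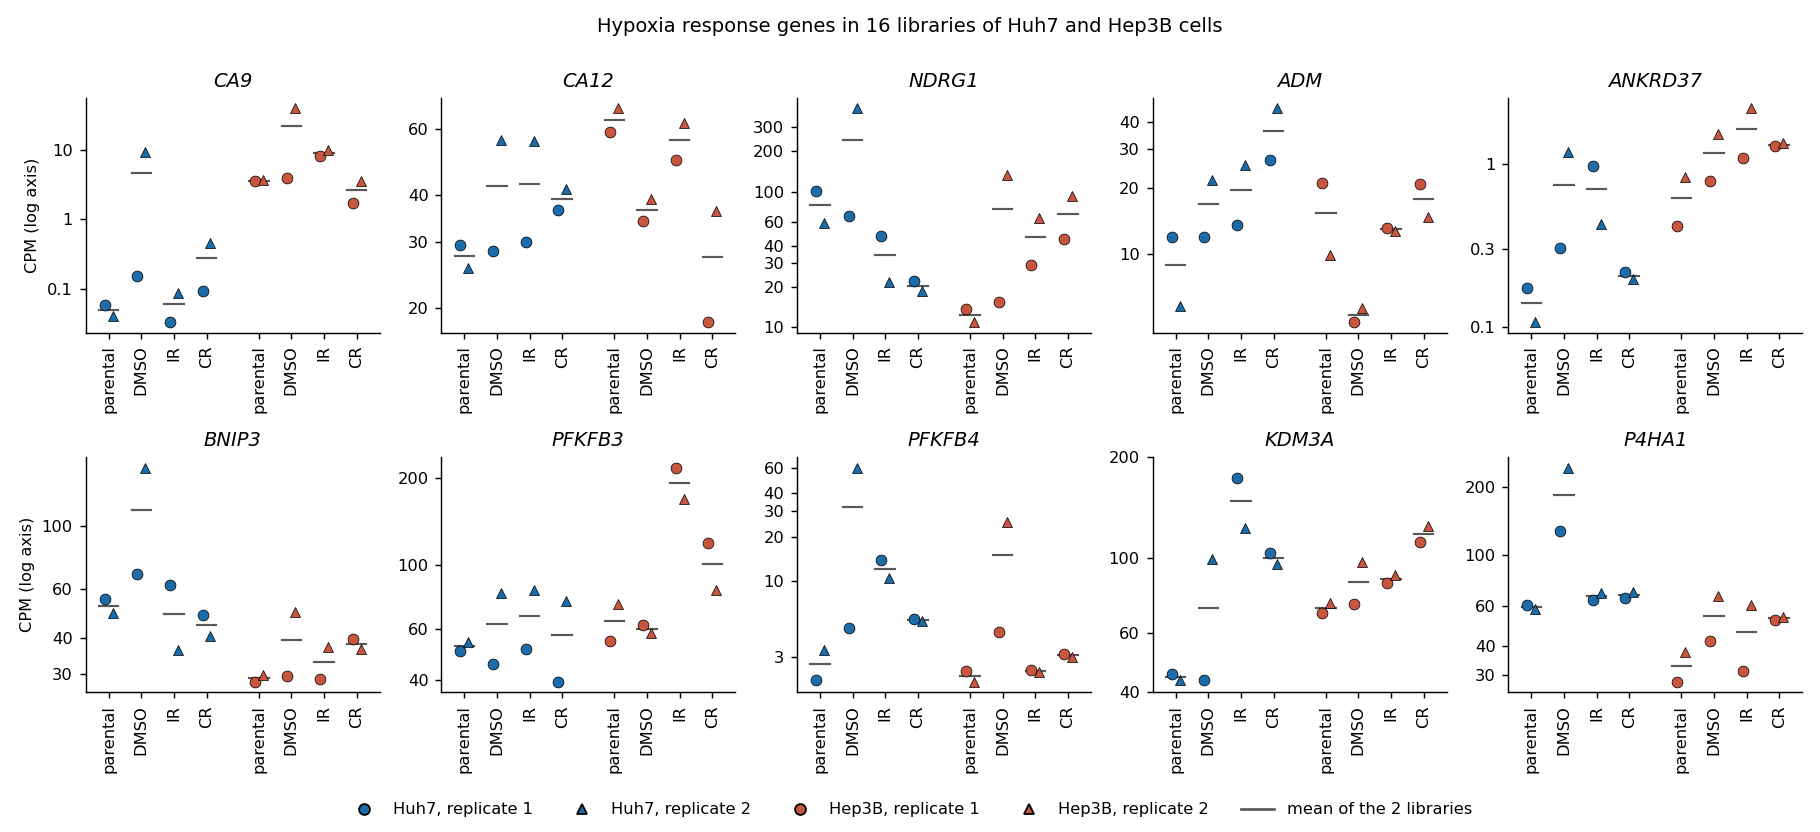
Each panel shows 1 gene, with CPM on a log axis and the groups of Huh7 (blue) and Hep3B (red) along the x axis; circles are replicate 1, triangles replicate 2 and bars the mean of both. For CA9, NDRG1 and PFKFB4 the DMSO triangle lies above every other library of its line, while PFKFB3 is highest in the 2 Hep3B-IR libraries at 216 and 168 CPM.

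On the log2(CPM + 1) scale the second DMSO library exceeded the first by 3.14 in Huh7 and 3.05 in Hep3B for CA9, by 2.63 and 3.04 for NDRG1, and by 3.40 and 2.28 for PFKFB4. As ratios of CPM these were 60.3 and 10.2 for CA9, 6.26 and 8.70 for NDRG1, and 12.5 and 5.73 for PFKFB4. In the other 3 groups of each line the replicates of CA9 differed by at most 0.77, those of NDRG1 by at most 1.119 and those of PFKFB4 by at most 0.50. When all 15019 genes tested were ranked by the smaller of the differences in the 2 lines, CA9 was at rank 1, NDRG1 at rank 3 and PFKFB4 at rank 4. With 1 library on each side these differences compare libraries and carry no test.

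The remaining genes differed less. BNIP3 (gene ID 664, chromosome 10, 133781188 to 133795471), which promotes removal of mitochondria, had 67.3 and 160 CPM in Huh7 DMSO and 29.4 and 49.6 CPM in Hep3B DMSO. P4HA1 (gene ID 5033, chromosome 10, 74766975 to 74856732), the catalytic subunit of the hydroxylase that matures collagen, had 128 and 242 CPM in Huh7 DMSO and 42.3 and 66.6 CPM in Hep3B DMSO. These differences were 1.24 and 0.73 for BNIP3 and 0.92 and 0.64 for P4HA1. KDM3A, CA12, ADM and PFKFB3 differed by 1.18, 0.96, 0.81 and 0.80 in Huh7 and by 0.41, 0.20, 0.17 and -0.08 in Hep3B. ANKRD37 differed by 0.75 and 0.50. A difference of at least 1.5-fold, taken as 0.58 on the log2(CPM + 1) scale, was seen for 10 of 10 genes in Huh7, where 17.5% of all genes reached it, and for 5 of 10 in Hep3B, where 2.17% did. The same 5 genes (CA9, NDRG1, PFKFB4, BNIP3 and P4HA1) reached it in both lines, as did 1.42% of all genes. At 2-fold the numbers were 5 in Huh7 (6.73% of all genes), 3 in Hep3B (0.406%) and 3 in both (0.260%). As ratios of CPM with no pseudocount, 10 genes in Huh7 (24.6% of all genes) and 6 in Hep3B (5.82%) reached 1.5-fold, with ANKRD37 as the sixth at 1.93, and 6 (13.4%) and 3 (2.06%) reached 2-fold. In the 6 other groups 0 to 3 of the 10 were at least 1.5-fold higher in the second library. There were 3 in Huh7-IR (11.7% of all genes), Hep3B-IR (2.04%) and Hep3B-CR (2.12%), and 2 in Huh7-CR (3.28%). The resistant groups thus also lay above the share of all genes. The parental groups had 0 (1.1% in Huh7 and 1.42% in Hep3B). At least 1.5-fold lower were 2 in Huh7 parental, 2 in Huh7-IR and 1 in Hep3B parental cells. Of all 15019 genes, 721, 1723 and 441 were lower by this limit in the same order. The median difference of the 10 in these 6 groups lay between -0.16 and 0.30, against 1.07 in Huh7 DMSO and 0.57 in Hep3B DMSO.

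**Figure D2:**
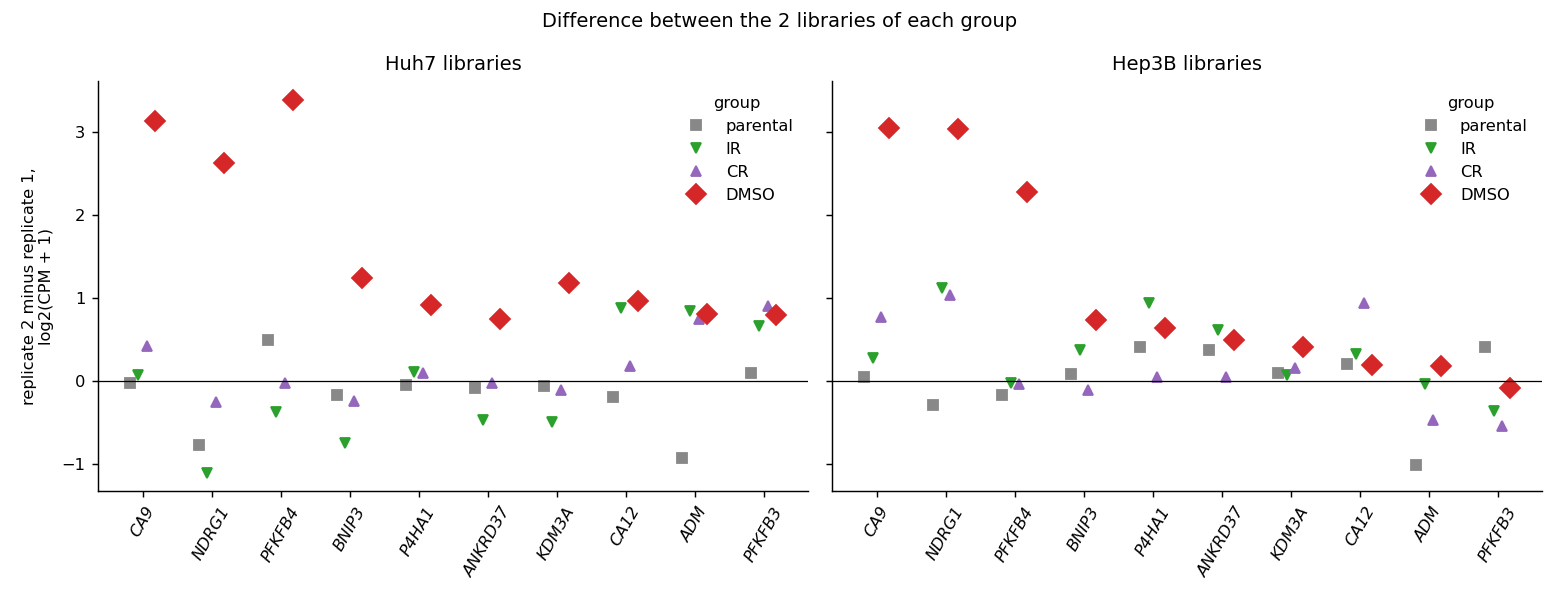
The difference of replicate 2 from replicate 1 on the log2(CPM + 1) scale is shown for each of the 10 genes in each of the 8 groups. The DMSO groups reach 3.40 in Huh7 and 3.05 in Hep3B, while the other groups stay between -1.11 and 1.119.

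**Figure D3:**
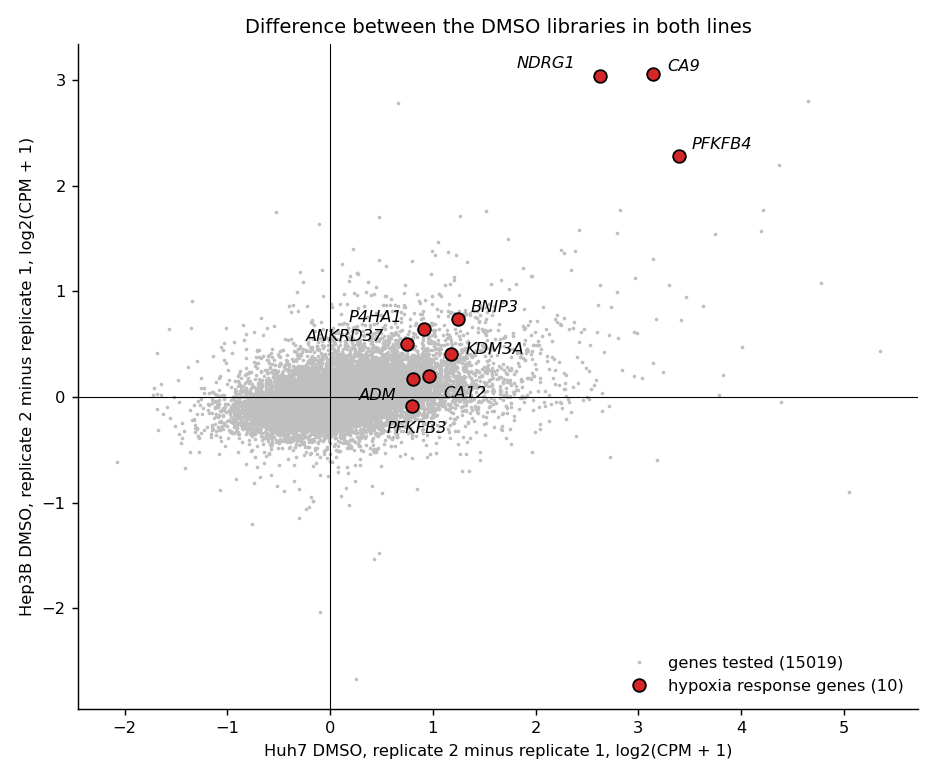
For all 15019 genes tested, the difference between the DMSO libraries (replicate 2 minus replicate 1, log2) is plotted for Huh7 on the x axis and Hep3B on the y axis, with the 10 genes labeled. CA9, NDRG1 and PFKFB4 lie far from the cloud in both directions, while PFKFB3 lies at 0.80 in Huh7 and -0.08 in Hep3B.

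Other genes that HIF is known to induce were taken from a list of 35, which shares EGLN1 and EGLN3 with a list of 15 regulators. In Huh7 DMSO 29 of the 35 were at least 1.5-fold higher in the second library and 0 lower (17.5% and 6.92% of all genes). In Hep3B DMSO 12 were higher and 1 lower (2.17% and 0.360% of all genes). Among those with the largest difference in both lines were PPFIA4, ENO2 and ALDOC. PPFIA4, a liprin, went from 0.469 to 18.7 CPM in Huh7 and from 0.260 to 2.66 CPM in Hep3B. It reached 1 CPM only in these second DMSO libraries and was tested only because of them. ALDOC, an aldolase of glycolysis, went from 36.6 to 231 CPM and from 13.2 to 28.6 CPM. ENO2, an enolase, went from 1.61 to 70.5 CPM in Huh7 and from 5.01 to 11.7 CPM in Hep3B. Of the list of 15 HIF subunits and regulators, 3 were at least 1.5-fold higher in the second Huh7 DMSO library, near the 17.5% of all genes. In that of Hep3B 2 were (2.17% of all genes). HIF1A itself had 778 and 580 CPM in Huh7 DMSO and 287 and 261 CPM in Hep3B DMSO, lower in the second library of both.

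Among the genes tested outside the gene lists used here, the 6 with the largest difference in both lines were PNCK, CCDC183, LGI4, FER1L4, EPO and HAMP. PNCK, LGI4 and EPO reached 1 CPM, the limit for a gene to be tested, only in the second DMSO libraries. They thus entered the ranking only through the libraries where they were high, and their rank is no separate evidence. EPO, the hormone of red cell production and the gene on which HIF was found, had 0.0552 and 4.64 CPM in the Huh7 DMSO libraries and 0.208 and 2.60 CPM in those of Hep3B. PNCK, a calcium-dependent kinase, had 0.0414 and 25.1 CPM in Huh7 DMSO and 0.143 and 6.95 CPM in Hep3B DMSO. In the 12 parental and resistant libraries EPO stayed at or below 0.239 CPM and PNCK at or below 0.133 CPM. HAMP, the iron hormone hepcidin, had 3.93 and 89.2 CPM in Huh7 DMSO and 0.833 and 4.46 CPM in Hep3B DMSO. In Hep3B its parental libraries differed in the same way, with 0.794 and 4.01 CPM, while those of Huh7 had 0.0873 and 0.0268 CPM. Patterns over the 16 libraries were also compared with the mean standardized level of the 10, again only for genes outside the lists. Most alike were SPAG4 (Pearson's r = 0.90), FER1L4 (0.86), FGF11 (0.85), DNM2 (0.84) and JUND (0.83). These correlations are over libraries that share groups, and the mean of the 10 was itself highest in Huh7 DMSO replicate 2 at 1.46.

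Measured against parental cells in a common limma model of the 16 libraries, the DMSO groups changed for 1 of the 10 genes in Huh7, where 5.18% of all genes changed, and for 0 of 10 in Hep3B, where 1.64% did. A gene counted as changed at a Benjamini-Hochberg adjusted p under 0.05 over all 15019 genes. The gene was P4HA1, with a log2 fold change of 1.55 (SE 0.32, adjusted p = 0.0223), and both Huh7 DMSO libraries lay above the parental ones at 60.4 and 58.2 CPM. In Hep3B, 2 of 10 passed the study's thresholds (unadjusted p under 0.05 and a log2 change of at least 0.58), as did 1210 of 15019 genes. There edgeR called 0 of 10 and 77 of all genes, and DESeq2 1 of 10 and 647 of all genes. The median change of the 10 in Huh7 DMSO was 1.44 without DMSO replicate 1 and 0.16 without DMSO replicate 2. The P4HA1 call was lost without DMSO replicate 2 or without either parental library. P4HA1 was at 1.09 without DMSO replicate 2 (adjusted p = 0.207, limma), within a range of adjusted p from 0.000278 to 0.419 over 16 alternatives. The median change of the 10 was 0.93 in Huh7 DMSO and 0.40 in Hep3B DMSO, against 0.05 and 0.01 for all genes.

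In resistant cells the response was not uniform. In Huh7 the model called KDM3A in IR, 1 of 10 genes where 57.5% of all genes changed, and KDM3A with ADM in CR, 2 of 10 where 41.3% changed, all of them higher. In Hep3B it called PFKFB3 as higher in IR, 1 of 10 where 32.0% changed, and CA12 as lower in CR, 1 of 10 where 38.8% changed. The median change of the 10 genes was 0.43 in the IR and 0.22 in the CR cells of Huh7, against 0.19 and 0.07 for all genes. It was 0.35 and 0.46 in those of Hep3B, against 0.06 and 0.11. IR and CR cells of a line share their parental libraries. The median of all genes moved with the scaling, in Huh7-IR from 0.19 to 0.04 with TMM factors and in Hep3B-CR from 0.11 to -0.004 with quantile normalization, and the median of the 10 moved to 0.24 and 0.26. In bulk RNA, fewer cells that express a gene and less RNA of it in each cell cannot be told apart.

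The model pools the error of a gene over all groups, so the spread between the DMSO libraries entered the SE of every comparison. For CA9, NDRG1 and PFKFB4 the SE of a comparison with parental cells was 0.92, 0.92 and 0.85 with the DMSO libraries and 0.24, 0.48 and 0.20 without them, while the fold changes are the same. A model of the 12 parental and resistant libraries, chosen after the data were seen, called 3 of the 10 higher and 1 lower in both resistant Huh7 lines, where 59.3% (IR) and 43.9% (CR) of all genes changed. In Hep3B it called 4 higher in IR (34.6%), and 3 higher with 1 lower in CR (41.7%). Both models are given below.

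KDM3A (gene ID 55818, chromosome 2, 86667770 to 86719839) is a histone demethylase that removes methyl groups from lysine 9 of histone H3. It had 45.4 and 43.5 CPM in Huh7 parental, 43.4 and 99.4 CPM in DMSO, 174 and 123 CPM in Huh7-IR and 104 and 96.2 CPM in Huh7-CR, and neither resistant group overlapped the parental one. With 2 libraries a group, small changes also gave no overlap, such as that of ANKRD37 in Huh7-CR (0.08, log2). KDM3A rose by 1.70 (log2, SE 0.29, adjusted p = 0.000365, limma) in Huh7-IR and by 1.15 (SE 0.29, adjusted p = 0.00734) in Huh7-CR. Adjusted p over 17 alternatives with the parental reference was 2.11e-06 to 0.00728 in Huh7-IR and 0.000237 to 0.0504 in Huh7-CR, the highest without Huh7-CR replicate 1. With DMSO libraries as reference Huh7-IR passed each time, while Huh7-CR passed with the first (1.19) and not with both (0.60, adjusted p = 0.12) or the second (0.01, adjusted p = 0.973, limma). Hep3B had 68.8 and 73.8 CPM in parental, 73.3 and 97.4 CPM in DMSO, 84.8 and 89.4 CPM in IR and 112 and 125 CPM in CR, and again neither resistant group overlapped the parental one. The change of 0.72 in Hep3B-CR did not pass (adjusted p = 0.0679, limma), and it passed in 3 of the 17 alternatives, those with all or the second DMSO libraries left out (0.00419 and 0.00424) or with both groups fitted alone (0.00751), and by the study's thresholds.

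ADM (gene ID 133, chromosome 11, 10326620 to 10328944) encodes adrenomedullin, a peptide that widens vessels. It had 12 and 5.83 CPM in Huh7 parental, 12.03 and 21.8 CPM in DMSO, 13.6 and 25.4 CPM in IR and 26.9 and 46.0 CPM in CR. It rose in Huh7-CR by 1.94 (log2, SE 0.43, adjusted p = 0.00347) and passed in 17 of 17 alternatives with the parental reference, with adjusted p of 4.52e-05 to 0.0466. It did not pass with the first (1.48, adjusted p = 0.0548), the second (0.67, adjusted p = 0.348) or both DMSO libraries (1.07, adjusted p = 0.0642, limma) as reference. In Hep3B it had 21.0 and 9.92 CPM in parental, 4.93 and 5.69 CPM in DMSO, 13.2 and 12.8 CPM in IR and 20.8 and 14.8 CPM in CR. All 4 resistant Hep3B libraries lay between the parental values, and both DMSO libraries lay below them.

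In the glycolytic pair, PFKFB3 passed the threshold as higher in 1 resistant Hep3B line. PFKFB3 (gene ID 5209, chromosome 10, 6186897 to 6296607), an enzyme that raises fructose 2,6-bisphosphate, had 54.8 and 73.2 CPM in Hep3B parental, 61.9 and 58.5 CPM in DMSO, 216 and 168 CPM in Hep3B-IR and 119 and 81.7 CPM in Hep3B-CR. It rose in Hep3B-IR by 1.57 (log2, SE 0.33, adjusted p = 0.00348), with adjusted p of 0.000152 to 0.038 over 17 alternatives. In Hep3B-CR it was higher by 0.63 without overlap and did not pass (adjusted p = 0.154, limma). Hep3B-IR against Hep3B-CR did not pass for PFKFB3 either (0.94, adjusted p = 0.0823, limma). In Huh7 its resistant libraries of 51.5 and 81.9 CPM (IR) and 39.6 and 74.9 CPM (CR) overlapped the parental 50.7 and 54.3 CPM, and DMSO had 45.5 and 79.99 CPM.

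For PFKFB3 the difference of the resistant change between the lines did not pass (-0.93, adjusted p = 0.106, and 0.0925 without the DMSO libraries, limma).

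PFKFB4 was higher than parental in all 4 resistant Huh7 libraries, by 1.83 in IR and 0.81 in CR (log2). With the DMSO libraries in the model the adjusted p was 0.084 and 0.49, and without them 4.37e-05 and 0.00948 (limma). In Hep3B-IR its 2.44 and 2.37 CPM lay next to the parental 2.42 and 2.04 CPM.

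CA12 (gene ID 771, chromosome 15, 63613577 to 63674045), the second membrane carbonic anhydrase, had 58.9 and 68.1 CPM in Hep3B parental, 34.1 and 39.1 CPM in DMSO, 49.5 and 62.4 CPM in IR and 18.4 and 36.2 CPM in CR. It fell in Hep3B-CR, with a log2 fold change of -1.26 (SE 0.36, adjusted p = 0.015) and adjusted p of 0.00144 to 0.16 over 17 alternatives with the parental reference, 15 of which kept the call. It was lost without Hep3B parental replicate 2 (-1.16, adjusted p = 0.0919, limma) and without Hep3B-CR replicate 1 (-0.79, adjusted p = 0.16), and with any DMSO reference (-0.58 to -0.39, adjusted p of 0.295 to 0.501). In Huh7 it had 29.4 and 25.5 CPM in parental, 28.4 and 56.2 CPM in DMSO, 30.01 and 55.8 CPM in IR and 36.4 and 41.4 CPM in CR, not past the threshold. CA9 in Hep3B-IR was above parental by 1.11 (log2), with an adjusted p of 0.40 with the DMSO libraries in the model and of 0.00543 without them (limma).

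NDRG1 had opposite signs in the lines. Its log2 fold change was -1.25 (IR) and -1.88 (CR) in Huh7 and 1.74 (IR) and 2.31 (CR) in Hep3B. In each case the resistant libraries did not overlap the parental ones, which was also so for small changes such as 0.18 for P4HA1 in Huh7-CR. None of the 4 changes of NDRG1 passed with the DMSO libraries in the model, at an SE of 0.92. Without them all 4 did, with adjusted p of 0.0443, 0.00948, 0.0176 and 0.00359 (limma).

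BNIP3 in Huh7 had 55.2 and 49.1 CPM in parental, 61.7 and 36.3 CPM in IR and 48.4 and 40.8 CPM in CR. Hep3B had 28.1 and 29.8 CPM in parental, 28.6 and 37.4 CPM in IR and 39.7 and 36.7 CPM in CR, and it passed the threshold in neither model. P4HA1 had 60.4 and 58.2 CPM in Huh7 parental and 63.7 to 69.4 CPM in the 4 resistant Huh7 libraries. In Hep3B it had 28.0 and 37.6 CPM in parental, 31.2 and 60.7 CPM in IR and 52.2 and 53.8 CPM in CR. Its change of 0.69 in Hep3B-CR had an adjusted p of 0.0497 without the DMSO libraries (limma).

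ANKRD37 (gene ID 353322, chromosome 4, 186317175 to 186321782), an ankyrin repeat protein, had 0.107 to 1.19 CPM in Huh7 and 0.417 to 2.20 CPM in Hep3B. In the model without DMSO libraries it was higher by 0.56 in Huh7-IR (adjusted p = 0.0494) and by 0.69 in Hep3B-IR (adjusted p = 0.035, limma). At 8 to 155 reads per library its values are the least precise after CA9 in Huh7.

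**Figure D4:**
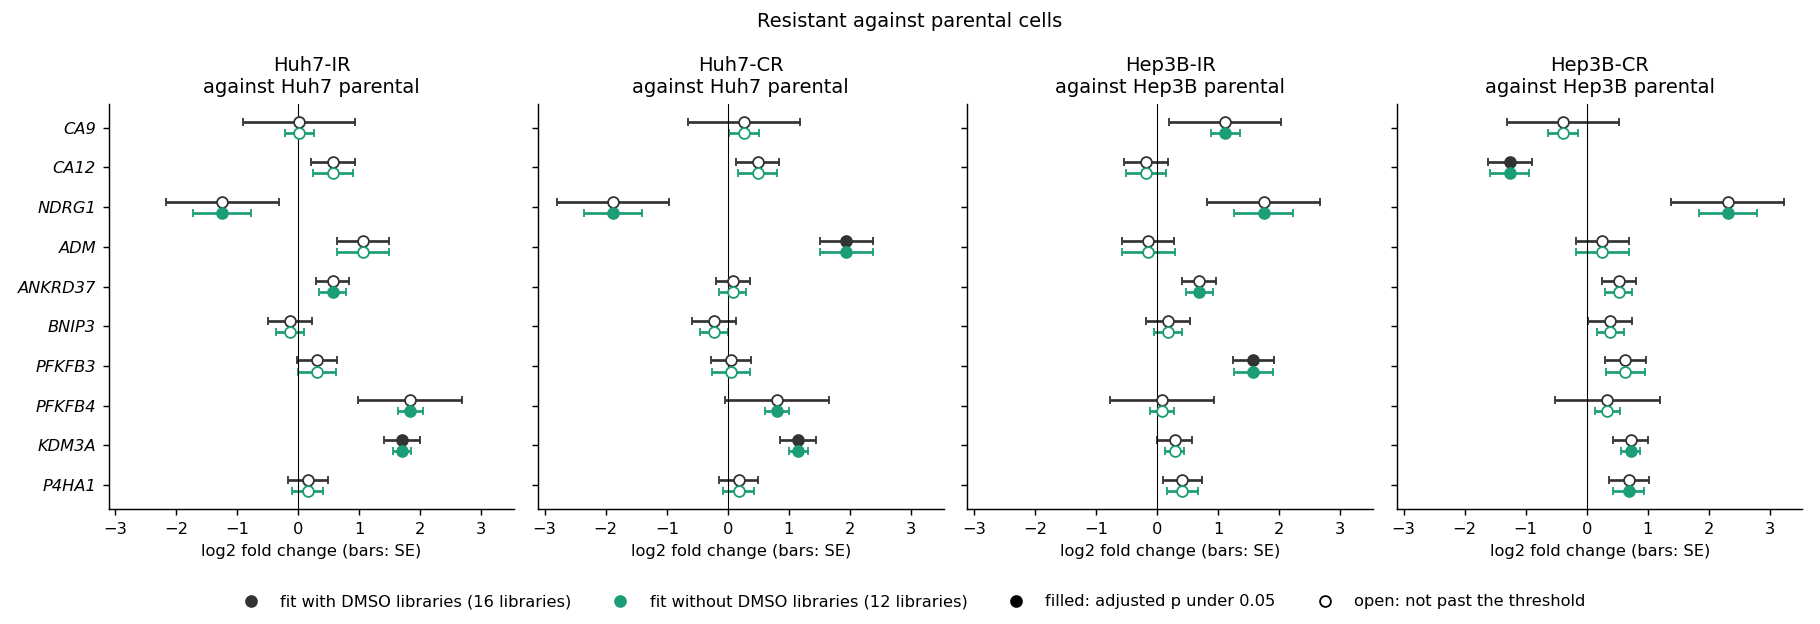
The log2 fold change of each of the 10 genes against parental cells is shown for the 4 resistant lines, with bars for the SE in the models with (dark) and without (green) DMSO libraries and filled points for an adjusted p under 0.05. KDM3A stands at 1.70 in Huh7-IR, and NDRG1 lies at -1.25 and -1.88 in Huh7 and at 1.74 and 2.31 in Hep3B.

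Whether the resistant change, averaged over IR and CR, differed between the lines was tested by an interaction contrast. It called 1 of the 10 higher in Huh7 and 1 lower, where 31.6% of all genes were called. NDRG1 changed by 3.59 less in Huh7 than in Hep3B, with a contrast of -3.59 (log2, SE 1.13, adjusted p = 0.0296), and with an adjusted p of 0.00131 without the DMSO libraries. For CA12 the contrast was 1.25 (SE 0.44, adjusted p = 0.0466, and 0.0338 without the DMSO libraries, limma). Over 25 alternatives NDRG1 lay between -3.98 and -3.21 with adjusted p of 0.0013 to 0.111 and passed in 17, and CA12 lay between 1.01 and 1.49 with adjusted p of 0.0169 to 0.147 and passed in 11. Leaving out either parental library of either line lost both calls. Without the DMSO libraries PFKFB4 (1.11) and KDM3A (0.92) were called as well, for 3 higher and 1 lower of 10, where 34.6% of all genes were called.

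The parental lines themselves differed in 3 of the 10 genes, where 50.3% of all genes differed. NDRG1 was higher in Huh7 by 2.56 (log2, SE 0.92, adjusted p = 0.0351) and P4HA1 by 0.85 (SE 0.32, adjusted p = 0.045), and CA12 was lower, with -1.18 (SE 0.36, adjusted p = 0.0154). The NDRG1 and P4HA1 calls were lost without any 1 of the 4 parental libraries (adjusted p up to 0.165 and 0.235), and that of CA12 without replicate 2 of either line (up to 0.0843). Without the DMSO libraries CA9 was lower in Huh7 as well (-2.13, adjusted p = 4.68e-05), as was KDM3A (-0.67), and BNIP3 was higher (0.83), where 52.7% of all genes differed. IR and CR cells were compared with each other in each line. limma called 0 of 10 in Huh7 (16% of all genes) and 0 of 10 in Hep3B (13.7%). By the study's thresholds there were 0 and 2, where 3148 and 2671 of the 15019 genes passed. edgeR called 0 in both (1930 and 1791 of all genes) and DESeq2 0 and 2 (3042 and 2674). Without the DMSO libraries PFKFB4 (1.03) and KDM3A (0.54) were higher in Huh7-IR than in Huh7-CR (19.1% of all genes), and CA9 was higher in Hep3B-IR than in Hep3B-CR (1.5, adjusted p = 0.0036, with 14.7% of all genes).

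The pathway around the 10 genes gives their setting. The list of 35 other HIF-induced genes had 16 higher against 5 lower in the IR cells of Huh7 (median 1.2, log2) and 10 against 4 in its CR cells (0.65). For Hep3B it had 12 against 2 in IR (0.48) and 11 against 2 in CR (0.74). The share of all genes that was higher came to 36.0% and 24.5% for the IR and CR cells of Huh7 and to 18.3% and 23.6% for those of Hep3B. The share that was lower came to 21.5%, 16.8%, 13.7% and 15.2% in this order. For Huh7-CR the 10 of 35 higher were near the share of all genes. Without the DMSO libraries the counts were 21 against 6 and 20 against 5 in Huh7, and 16 against 3 and 17 against 3 in Hep3B, where 36.8%, 25.8%, 19.6% and 25.5% of all genes were higher. The highest mean changes were in STC2, DDIT4, RAB20 and ENO2, and the lowest in EGLN1, FAM162A, LDHA and PLOD2. STC2, a secreted stanniocalcin, had 4.16 and 5.87 CPM in Huh7 parental and 114 to 261 CPM in the 4 resistant Huh7 libraries. LDHA, the lactate dehydrogenase of muscle type, had 1738 and 1885 CPM in Huh7 parental and 785 and 887 CPM in Huh7-IR, with a log2 fold change of -1.12 (adjusted p = 0.000838, limma). RAB20, a small GTPase, rose by 4.4 in Hep3B-IR and by 3.65 in Hep3B-CR (log2), from 0.175 and 0.450 CPM in the parental libraries.

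Of the 15 HIF subunits and regulators the IR cells of Huh7 had 6 higher with 3 lower and its CR cells 3 with 1, while both resistant Hep3B lines had 1 higher with 2 lower. In all 4 resistant lines these counts were near or below the shares of all genes. HIF1A fell in Huh7-IR, with a log2 fold change of -0.95 (adjusted p = 0.00278, limma), and rose in Hep3B-IR by 0.87 (adjusted p = 0.00967). Its values in the CR cells were -0.50 and 0.49, not past the threshold. EGLN1, the main oxygen-sensing prolyl hydroxylase, fell in all 4 resistant lines, with log2 fold changes of -2.83, -1.28, -1.72 and -1.90. ARNT2, a partner of the HIFα subunits, rose in Huh7-IR by 3.14 and in Huh7-CR by 2.93, from at most 0.277 CPM in parental cells to 6.60 to 10.2 CPM. EGLN2, HIF1AN, CITED2, CREBBP and SIAH2 also rose in Huh7-IR, by 1.00, 0.57, 1.2, 0.85 and 1.5.

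Lists outside the HIF pathway moved with the same groups. All 12 cell cycle genes were lower in the IR cells of Huh7 and 8 in its CR cells, and 9 (IR) and 11 (CR) in Hep3B, with 0 higher in any, where 13.7% to 21.5% of all genes were lower. Of 10 genes of the integrated stress response, 10, 9, 10 and 10 were higher in the same order and 0 lower, where 18.3% to 36.0% of all genes were higher. Of the hepatocyte markers 9, 8, 4 and 7 of 10 were lower, with 1 higher in Hep3B-IR, against the same 13.7% to 21.5% lower. In the second Huh7 DMSO library 7 of the 10 stress genes were at least 1.5-fold above the first (17.5% of all genes), and 0 in that of Hep3B (2.17%). The markers of other cell types, 8 of which were tested, were higher for 5, 5, 2 and 3 genes and lower for 2, 2, 1 and 0. The same 18.3% to 36.0% of all genes were higher and 13.7% to 21.5% lower. The part of these changes in those of the 10 hypoxia genes was not tested.

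The direction of the summary depended on which untreated libraries served as the reference. Against the first DMSO library the median change of the 10 genes was 0.44 (IR) and 0.14 (CR) in Huh7 and 0.61 (IR) and 0.37 (CR) in Hep3B, positive as against parental cells. Against the second DMSO library it was -1.09 and -1.35 in Huh7 and -0.37 and -0.35 in Hep3B. With both as reference it was -0.26 and -0.85 in Huh7 and -0.02 and 0.06 in Hep3B. With the second library as reference the model called 1 gene higher and 5 lower in the IR cells of Huh7 (28.2% of all genes higher and 20.4% lower) and 0 and 6 in its CR cells (20.6% and 19.2%). In Hep3B it called 1 and 2 in IR (17.0% and 14.1%) and 0 and 2 in CR (18.6% and 13.1%). With the first library it called 2 and 1 in IR (31.4% and 20.7%) and 1 and 2 in CR (19.5% and 15.0%) of Huh7, and 2 and 0 (16.5% and 13.9%) and 3 and 0 (18.5% and 13.4%) in Hep3B. With both libraries it called 1 and 3 in IR (33.1% and 21.9%) and 0 and 3 in CR (23.0% and 18.8%) of Huh7, and 1 and 0 in IR (21.0% and 17.3%) and in CR (23.4% and 16.1%) of Hep3B. A single reference library is assumed to vary like the replicates of the other groups.

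The values of CA9 and PFKFB4 changed sign or size with the reference. In Huh7-IR, CA9 changed by 0.01 (log2) against parental libraries and by -3.26 against DMSO replicate 2. PFKFB4 in Huh7-IR went from 1.83 to -2.22, and in Hep3B-CR from 0.34 to -2.70. PFKFB3 in Hep3B-IR stayed between 1.57 and 1.69 with any of these 3 references.

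**Figure D5:**
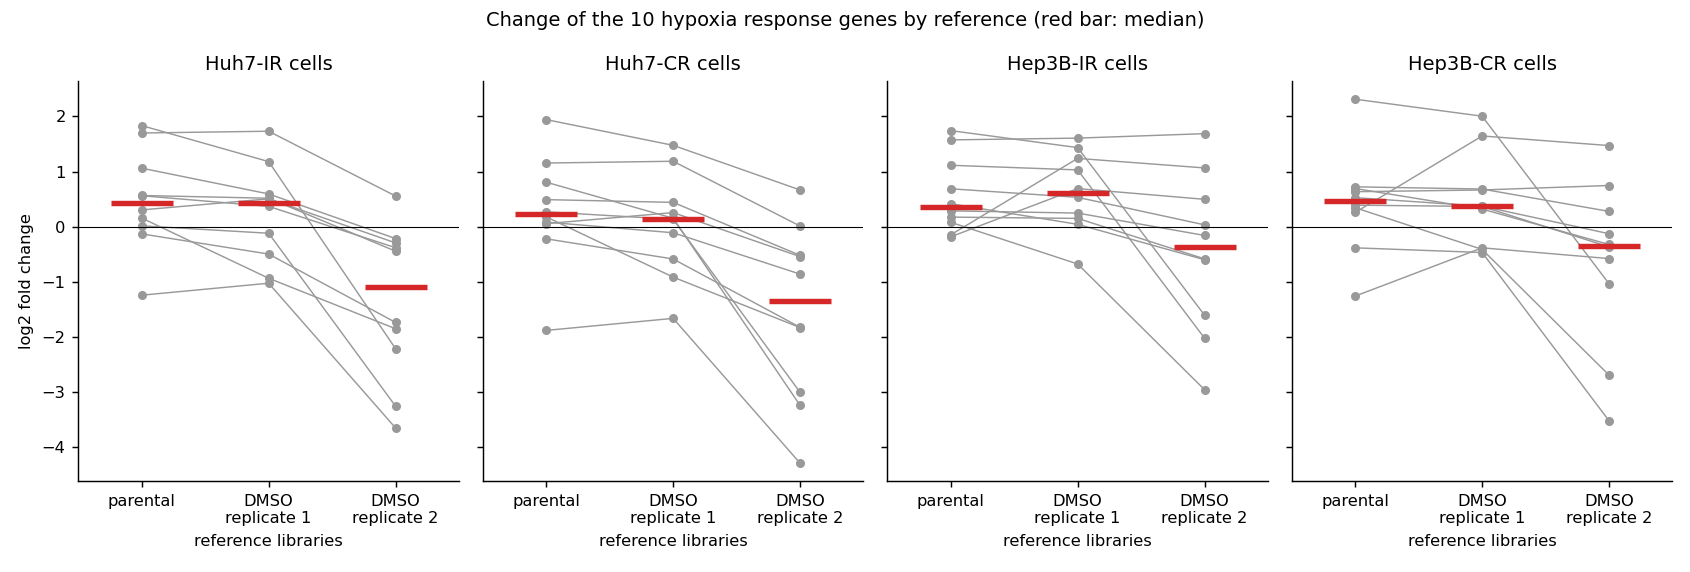
The log2 fold change of the 10 genes (grey lines, with a red bar at the median) is shown for each resistant line against the parental libraries, DMSO replicate 1 and DMSO replicate 2. The medians in Huh7-IR are 0.43, 0.44 and -1.09, and those in Hep3B-IR 0.35, 0.61 and -0.37.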

How the data were processed

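Poly-A+ RNA of 16 libraries (2 lines, 4 states, 2 replicates) was sequenced. The labels give a stranded TruSeq mRNA kit, while the study's methods describe a total RNA kit and triplicates; 2 replicates a group were analysed here. The authors mapped reads with STAR to hg19, kept unique hits, counted them over RefSeq exons with QuasR and deposited the counts as CPM, scaled to the library total, per the labels and methods. Every library sums to 1000000 CPM, and 100% of values were whole reads within 0.05 after division by the library's step. The limit that a count of 0 allows was set at 3 reads, for counting error alone. Gene IDs were matched to symbols for 26111 of 26258 genes.

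Values were fitted as log2(CPM + 1) with limma 3.58.1 in R 4.3.3 (mean-variance trend, 8 groups in 1 model, moderated test, Benjamini-Hochberg adjustment) for the 15019 genes that reached 1 CPM in 2 or more libraries; fold changes on this scale understate those of low genes. The genes, the lists and the tests were chosen with earlier results of these data known. Besides the 10 genes, the text names regulators called in a resistant line with HIF1A, the 4 highest and 4 lowest mean changes of called HIF-induced genes and the 4 with the largest DMSO difference, and of the genes outside all lists the 6 with the largest DMSO difference and the 5 most like the members. Of these, 1 gene is not reported here. Alternatives were edgeR 4.0.16 and DESeq2 1.42.0 on recovered reads, pseudocounts of 0.25 and 4 CPM, no filter, TMM or quantile scaling, removal of the GC trend (97.19% of genes had a GC value), the study's thresholds, the replicate number as a block, other libraries as reference, and each library left out in turn. The 2 fits without DMSO libraries were added after the data were seen. The model was also run on simulated counts with known changes. In these no DMSO library was set apart from its replicate, so the model's behavior under that feature was not tested. Gene coordinates are from GENCODE on GRCh37, the build of the authors' mapping, and promoters from RefSeq on GRCh38.p14.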

Additional observations from a re-analysis of the deposited data

Results flagged for a closer look

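The change of NDRG1 in resistant cells differed between the lines by a test of the difference itself. Huh7 minus Hep3B, averaged over IR and CR cells, was -3.591 (log2, SE 1.13, adjusted p = 0.0296 by limma over all genes), with all 4 resistant Huh7 libraries below and all 4 resistant Hep3B libraries above their parental libraries. CA12 differed in the same contrast by 1.25 (SE 0.44, adjusted p = 0.0466), and it passed in 11 of 25 alternatives, against 17 of 25 for NDRG1. No cause of either difference was tested.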

How the results depend on the processing

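Counts of the 10 genes called are given here where an alternative moved them by over 1.5 times. For Huh7-IR against parental cells 1 was called, and the count was 3 with a pseudocount of 0.25 CPM, 2 with edgeR, DESeq2, the study's thresholds, the replicate block with the GC trend removed and the groups alone, 4, 3 and 6 with both, the first and the second DMSO library as reference, and 4 with all or the second DMSO libraries left out. For Huh7-CR (2 called) it was 5 with the groups alone, 6 with the second DMSO library as reference and 4 and 4 with all or the second DMSO libraries left out. For Hep3B-IR (1) it was 2 with the study's thresholds and the first DMSO library, 3 with the groups alone and the second DMSO library, and 4 and 4 with the DMSO libraries out. For Hep3B-CR (1) it was 2 with DESeq2, the replicate block, with and without the GC trend removed, and the second DMSO library, 3 with the study's thresholds and the first DMSO library, 6 with the groups alone and 4 and 4 with the DMSO libraries out. For Huh7 DMSO 1 of the 10 was called, with 778 of all genes. It was 0 with no filter (565 of 23311 genes) and the groups alone (0 of all genes). With DESeq2 it was 5 (2178 of all genes) and with the study's thresholds 3 (2171). With the second DMSO libraries out the median change of the 10 there was 0.16. For Hep3B DMSO (0, with 247 of all genes) it was 1 with DESeq2 (647) and 2 with the study's thresholds (1210).

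For Huh7-IR against Huh7-CR (0, with 2407 of all genes) the count was 2 and 2 with the DMSO libraries out (2875 and 2887). For Hep3B-IR against Hep3B-CR (0, with 2054 of all genes) it was 2 with DESeq2 (2674) and the study's thresholds (2671). It was also 2 with the replicate block with or without the GC trend removed (2261 and 2067). With the GC trend removed alone (2158) or the DMSO libraries out (2211 and 2217) it was 1. For the difference of the resistant change between lines (2, with 4746 of all genes) it was 0 with no filter (4821 of 23311 genes). It was 1 with edgeR (4193), TMM (4803) and quantile scaling (4745). With DESeq2 (4967), the block with the GC trend removed (5371), the groups alone (5197) and the DMSO libraries out (5197 and 5191) it was 4. By the study's thresholds (5252) it was 5. For the parental lines (3, with 7551 of all genes) it was 1 with no filter (7766 of 23311 genes). It was 6 with edgeR (7831), DESeq2 (8226), the study's thresholds (6640) and the DMSO libraries out (7919 and 7923), and 7 with the groups alone (8644). A 2-fold limit gave 5 genes in Huh7 DMSO (10 at 1.5-fold) and 3 in Hep3B DMSO (5). The causes of these moves were not tested.

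With 1 library left out, calls of single genes were gained or lost in many fits. The median change of the 10 then ranged from 0.18 to 0.48 for Huh7-IR and from 0.11 to 0.49 for Huh7-CR. It ranged from 0.17 to 0.62 for Hep3B-IR and from 0.35 to 0.57 for Hep3B-CR. For Huh7 DMSO it ranged from 0.16 to 1.44 and for Hep3B DMSO from 0.06 to 0.71. The lone library of a group is then assumed to vary like the others.

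Of 1980 values of single genes under the alternatives, 53 lost and 136 gained a call, and 14 changed sign with a call on either side, all with a DMSO reference. With the second DMSO library these were CA9 at -3.26 (Huh7-IR), -3.01 (Huh7-CR) and -2.025 (Hep3B-IR), PFKFB4 at -2.22, -3.24 and -2.96 in the same order and -2.70 (Hep3B-CR), ANKRD37 at -0.86 (Huh7-CR), and P4HA1 at -1.85 (Huh7-IR) and -1.83 (Huh7-CR). P4HA1 was at -0.94 and -0.92 with the first DMSO library and at -1.40 and -1.375 with both. A further 87 values without a call changed sign and stayed without one.

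The labels tie the replicates of different groups by number only. The differences between replicates correlated across genes at -0.22 to 0.44 between the groups of a line. The highest was between Huh7-IR and Huh7-CR, and in Hep3B the correlation reached 0.26 between parental and CR cells. Some groups thus shared part of the replicate difference, and its source was not tested. The block moved no count by over 1.5 times except the 2 in Hep3B-CR and in Hep3B-IR against Hep3B-CR. At 2 to 4 reads of CA9 in the parental and IR libraries of Huh7, a difference between them was not detectable at this depth.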
